A study of Neurospora crassa with 18 samples.

Results

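Among 9774 *Neurospora crassa* genes, 132 were expressed at a moderate level with phosphate and were at least 4-fold lower after 4 h of phosphate starvation in wild-type cells. They were chosen by their mean TPM (the share of a library's transcripts, corrected for transcript length, out of a total of 1000000), from 10 to under 1000 TPM at 7 mM phosphate and at least 4-fold less at 0 mM. The thresholds were met by 139 genes, of which 7 were left out, 5 that the study names by number and NCU02545 and NCU02546. Because these values chose the genes, the fall itself is a description and carries no test. The thresholds used no library of the deletion strains or their wild types, and the tests come from those libraries, although earlier results from them were known when the genes were chosen.

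The study asked how this filamentous fungus responds to the loss of phosphate and which part of the response needs the transcription factors NUC-1 and NUC-3. Mycelia of all groups were grown in Vogel's medium with phosphate, washed, and shifted to Fries medium, and poly(A)-enriched RNA was sequenced from 18 libraries, 3 independently inoculated cultures in each of 6 groups. In Experiment 1, wild type *mat A* (FGSC 2489) was held for 4 h at 0 mM phosphate or at 7 mM phosphate. In Experiment 2, Δ*nuc-1* (*nuc-1*::HygR *mat a*, FGSC 11448) and wild type *mat A* (FGSC 2489) were held for 4 h at 0 mM. In Experiment 3, Δ*nuc-3* (*nuc-3*::HygR *mat a*, FGSC 11356) and wild type *mat a* (FGSC 4200) were held for 12 h at 0 mM. Each deletion was represented by 1 strain. The Δ*nuc-1* strain and its wild type also differed in mating type, so the deletion and the mating type cannot be told apart in Experiment 2. The experiments differed in sequencing platform and read length, and Experiment 1 was sequenced at another centre than the others. Levels from different experiments are set side by side without a test.

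Ribosomes are the most phosphate-rich machines of a growing cell, since their RNA carries a phosphate at every nucleotide. Their assembly starts in the nucleolus, where RNA polymerase I transcribes the rRNA precursor, small nucleolar ribonucleoproteins modify it, and assembly factors and RNA helicases fold, trim and package it. NUC-1 is the transcription factor long known to activate phosphate acquisition genes in *N. crassa*, and NUC-3 is another transcription factor that the study deleted. Ribosome assembly genes are known from budding yeast to be expressed together and to fall together when growth slows.

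The deleted genes matched the strain labels. *nuc-1* was at 1.87 to 2.25 TPM in Δ*nuc-1* libraries, against 23.4 to 41.3 TPM in the wild type of Experiment 2. *nuc-3* was at 0.397 to 1.46 TPM in Δ*nuc-3* libraries, against 108 to 227 TPM in the wild type of Experiment 3. All libraries were labelled as mycelia. The summed level of 4 genes of spore formation (*con-6*, *con-10*, *eas* and *fl*) still differed strongly between groups. None of the 4 was at 0 in every library of a group. Their summed level was 5023 to 6699 TPM at 0 mM and 47.8 to 60.9 TPM at 7 mM in Experiment 1. It was 29.1 to 29.8 TPM in Δ*nuc-1* and 92.7 to 157 TPM in wild type of Experiment 2, and 13930 to 23010 TPM in Δ*nuc-3* and 3809 to 6695 TPM in wild type of Experiment 3. Nearly all of the sum at 0 mM in Experiment 1 was *eas*, at 4689 to 6351 TPM. The same held in Experiment 3, where *eas* was at 13791 to 22878 TPM in Δ*nuc-3* and 3690 to 6588 TPM in wild type. There *con-6* had 19.1 to 23.0 TPM in Δ*nuc-3*, against 8.88 to 11.5 TPM in wild type. The groups overlapped for *con-10* (54.2 to 66.2 against 43.4 to 60.4 TPM) and *fl* (48.3 to 55.9 against 42.5 to 53.4 TPM). The part of these genes' cells in the results was not tested. In bulk RNA, fewer cells that express a gene and less RNA per cell cannot be told apart.

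In Experiment 1, the 132 genes had a median of 6.42 TPM at 0 mM, against 39.5 TPM at 7 mM. Together they made up 0.201% of all TPM at 0 mM and 1.18% at 7 mM. The 5787 genes of the same range at 7 mM had a median of 50.4 TPM at 0 mM and 39.5 TPM at 7 mM. The fall of the 131 genes with a ratio had a median of 5.86-fold and ran from 4.00- to 21.8-fold. It was at least 8-fold in 29 genes, at least 10-fold in 10, and under 5-fold in 41. The remaining gene, NCU17101, was listed at 0 in all 3 starved libraries, against 10.3, 11.6 and 10.3 TPM at 7 mM. The 3 starved libraries lay below the 3 libraries at 7 mM in all 132, which the choice of genes by their means favours. Over the 8244 genes fitted for that contrast with limma, 3.86% were at least 4-fold lower and 4.92% at least 4-fold higher at 0 mM with an adjusted p under 0.05. TPM are shares, and median-of-ratios factors were 1.13 to 1.23 in the libraries at 0 mM and 0.849 to 0.868 in those at 7 mM, so that the same thresholds on rescaled values would have taken 206 genes, 131 of them among the 132. The genes just inside the threshold were NCU17240 (4.00-fold), NCU06485 (4.02-fold) and *hsp60* (NCU01589, 4.06-fold). Just outside it stood NCU01524 (3.99-fold), NCU06090 (3.93-fold) and NCU04503 (3.93-fold).

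Annotations were found for 56 of the 132 genes, and the other 76 had none or were hypothetical proteins. The annotations came from RefSeq symbols and from shortened tables of the study, so the counts by function describe the annotated genes only. Most of what could be named belonged to ribosome production. There were 12 genes of ribosome assembly and rRNA processing among 28 such genes in the table. There were 7 of rRNA modification and small nucleolar ribonucleoproteins among 10, and 9 RNA helicases among 30. Subunits of RNA polymerases I and III gave 3 of 11. Cytosolic ribosomal proteins gave 3 of 81, and their more abundant genes lay above the limit of 1000 TPM. The rest included 3 mitochondrial proteins, 2 elongation factors annotated as EF-Tu and EF-G 1, 2 genes of amino acid metabolism, 2 of protein folding, 1 lysyl-tRNA synthetase, 1 peptide transporter and 11 with other annotations. No gene of the list for nucleotide and one-carbon metabolism was a member, among 41 in the table.

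Across the 6 conditions, these genes were high with phosphate and in starved Δ*nuc-1*, and lower in the other 4 groups. Only wild type of Experiment 1 was sequenced at 7 mM. The level of Δ*nuc-1* with phosphate is therefore unknown, and whether these genes fall in that strain was not tested. As a share of the level at 7 mM, the median was 17.0% in starved wild type of Experiment 1 and 35.0% in starved wild type of Experiment 2. It was 127% in starved Δ*nuc-1*. After 12 h without phosphate it was 33.7% in Δ*nuc-3* and 33.2% in wild type. The mean in Δ*nuc-1* was at or above the 7 mM mean for 82 of the 132 genes. By library, the median member was at 27.3, 42.9 and 71.6 TPM in Δ*nuc-1* replicates 1, 2 and 3. In the libraries at 7 mM it was at 38.7 to 40.7 TPM, so Δ*nuc-1* replicate 1 lay below them. Of the 6 conditions, Δ*nuc-1* had the highest mean for 81 genes and 7 mM phosphate for 46. Starved wild type of Experiment 1 had the lowest mean for 107 genes, as the choice of genes favours. In starved wild type of Experiment 2, the mean was below that at 7 mM for 126 genes, but at least 4-fold below it for 40. It was above the starved mean of Experiment 1 for 116. The strain, time and medium were the same in both experiments, but the cultures, sequencing centre, platform and read length were not. The RNA of the cultures also differed in the spore-formation genes. Their summed level was 5023 to 6699 TPM in starved wild type of Experiment 1, against 92.7 to 157 TPM in that of Experiment 2. Most of that difference was *eas* (4689 to 6351 against 49.1 to 83.0 TPM), while *fl* differed less (73.9 to 91.2 against 35.1 to 48.3 TPM). The source of the gap cannot be told apart.

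**Figure D1:**
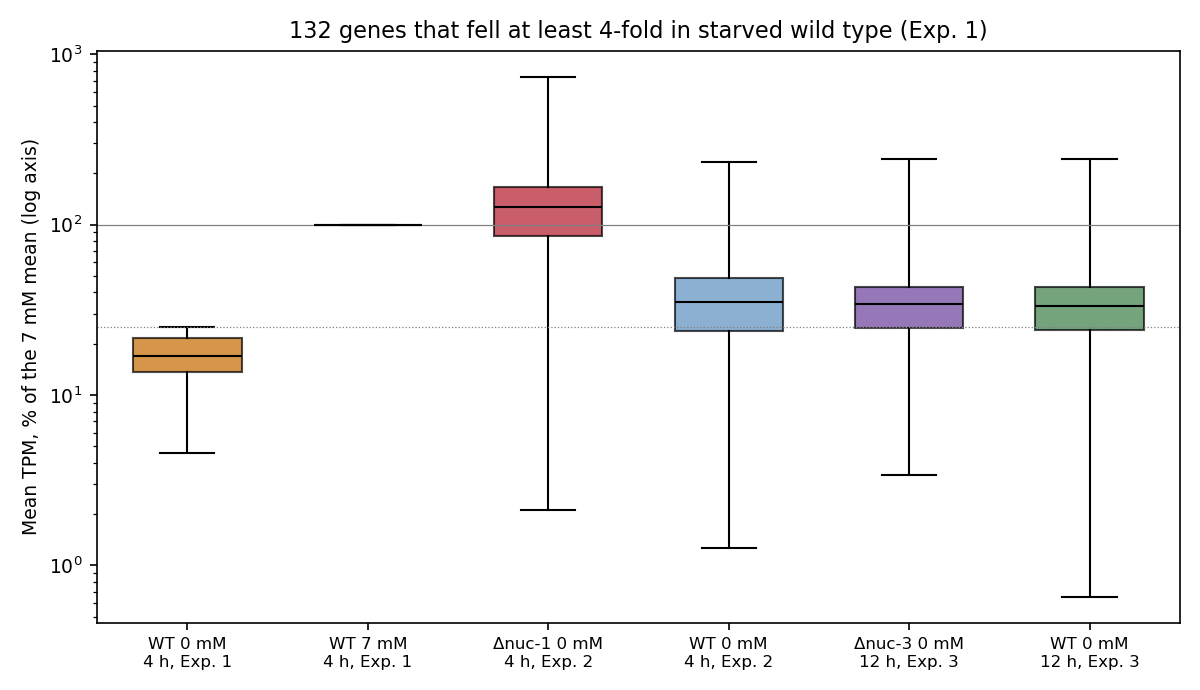
Mean TPM of the 132 genes in each condition as a percentage of their mean at 7 mM phosphate, on a log axis. Boxes span the quartiles with the median as a line, whiskers reach the lowest and highest gene above 0, and the dotted line marks a 4-fold fall; the medians were 17.0% in starved wild type of Experiment 1, 127% in Δ*nuc-1*, 35.0% in its wild type, 33.7% in Δ*nuc-3* and 33.2% in its wild type.

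Nearly all of these genes were higher in starved Δ*nuc-1* than in starved wild type. Of the 132 genes, 131 passed the filter of a mean of at least 1 TPM over the 6 libraries of Experiment 2. A gene was called where limma's adjusted p (Benjamini-Hochberg over all genes tested) was under 0.05 and its mean TPM, each library first divided by its median-of-ratios factor, differed at least 2-fold. By this rule 122 of the 132 rose in Δ*nuc-1*, where 5.15% of all 7909 genes tested were called higher. None was called lower, where 4.54% of all genes were, and none was lower at an unadjusted p under 0.05, where 1463 of the 7909 genes were. At a ratio of at least 4, 81 rose, where 1.44% of all genes did and 1.15% were lower. These 81 were 61.4% of the 132 genes and 71.1% of the 114 genes called higher at that ratio. The median ratio of the members was 4.43, and that of all genes tested was 1.00. In deposited TPM, the 3 Δ*nuc-1* libraries lay above the 3 wild-type libraries for 126 members, against 12.7% of all genes tested.

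The size of the rise differed between the Δ*nuc-1* libraries. Relative to the mean of wild type, the median member was at 2.40, 3.89 and 6.79 in Δ*nuc-1* replicates 1, 2 and 3, against 1.18, 1.01 and 0.784 in wild-type replicates 1, 2 and 3. All 3 Δ*nuc-1* libraries therefore lay above all 3 of wild type, but they lay far apart from each other. Replicate 3 was the highest Δ*nuc-1* library for 119 members, and replicate 1 was the lowest for 125. The median SD of a member in Δ*nuc-1* was 0.638 log2 units, against 0.427 in wild type, and the same over all genes was 0.181 in Δ*nuc-1* and 0.231 in wild type. Without Δ*nuc-1* replicate 3, 120 members were still called higher at a ratio of at least 2, but 12 in place of 81 at a ratio of at least 4. With TPM as deposited, the median log2 ratio of all genes tested was -0.19 in place of 0.01, and 52 members passed a ratio of 4. The split of calls over all genes was then 295 higher and 524 lower in Δ*nuc-1*, against 407 and 359 after rescaling.

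**Figure D2:**
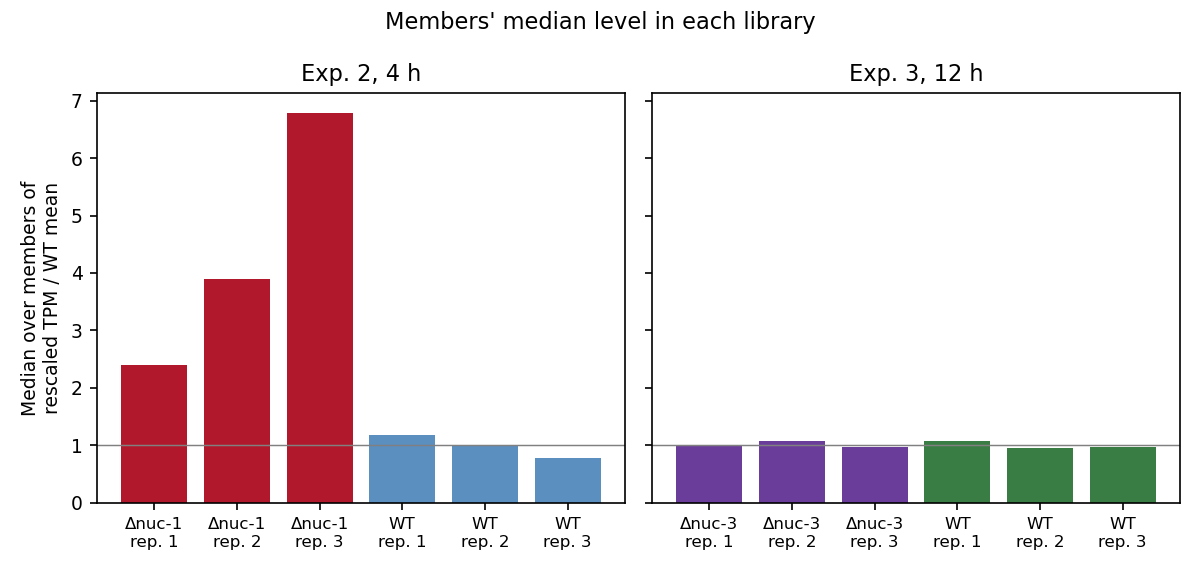
Median over the members of rescaled TPM divided by the wild-type mean of the same experiment, one bar for each library of Experiment 2 (left) and Experiment 3 (right). The Δ*nuc-1* bars stand at 2.40, 3.89 and 6.79 and the wild-type bars beside them at 1.18, 1.01 and 0.784, while the bars of Experiment 3 lie between 0.947 and 1.07.

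Genes that act first in ribosome production, the transcription of rRNA, were among those that rose. RPA1 (NCU01638, chromosome II, 2864458 to 2870350 on assembly NC12) is annotated as a subunit of RNA polymerase I. It had 44.3, 65.8 and 99.998 TPM in Δ*nuc-1*, against 29.2, 20.5 and 14.1 TPM in wild type. The groups did not overlap, and the ratio was 3.90 (limma log2 fold change 1.84, SE 0.32, adjusted p = 0.0057). The 2 members annotated as polypeptides of RNA polymerases I and III, NCU00419 and NCU02533, had ratios of 3.12 and 3.85 and were also called. In Experiment 1 these 3 genes were 5.29- to 6.85-fold lower at 0 mM. Outside the list, *un-18* (NCU08616), which carries a gene symbol only and was picked after its values were seen, had 25.9, 40.4 and 70.4 TPM in Δ*nuc-1*, against 15.2, 11.9 and 5.98 TPM in wild type. Of the 8 other genes of the polymerase list, 4 were called higher in Δ*nuc-1*.

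All 7 members of the list for rRNA modification rose in Δ*nuc-1*, 4 of them at least 4-fold, with ratios from 3.72 to 5.06. Fibrillarin (NCU03702, chromosome V, 2139694 to 2142246) is the methyltransferase of box C/D small nucleolar ribonucleoproteins. It had 392, 516 and 760 TPM in Δ*nuc-1*, against 170, 131 and 110 TPM in wild type. The lowest Δ*nuc-1* library was thus more than 2-fold above the highest wild-type library (ratio 4.74, log2 fold change 2.17, SE 0.26, limma adjusted p = 0.0015). In Experiment 1 fibrillarin had 34.8, 26.1 and 50.5 TPM at 0 mM, against 341, 348 and 344 TPM at 7 mM. CBF5 (NCU01290), the pseudouridine synthase of H/ACA particles, had 144, 212 and 333 TPM in Δ*nuc-1*, against 82.7, 60.1 and 49.1 TPM in wild type (ratio 4.22). Subunit 2 of the H/ACA complex (NCU08951) had 257, 333 and 538 TPM in Δ*nuc-1*, against 137, 104 and 89.3 TPM in wild type (ratio 4.00). Neither gene's groups overlapped. The U3 particle protein Mpp10 (NCU03952), the box C/D core protein SIK1 (NCU06943), the methyltransferase *spb1* (NCU03669) and a dimethyladenosine transferase (NCU08968) made up the rest of the list. Of the 3 other genes in this list that were tested, 1 was called higher.

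The 12 members of ribosome assembly and rRNA processing all rose too, 8 of them at least 4-fold, with a median ratio of 4.55. The largest ratio of any member with a value in wild type was that of NCU03092 (chromosome I, 4518471 to 4520961), annotated as a nuclear localization sequence binding protein. It had 183, 369 and 788 TPM in Δ*nuc-1*, against 81.8, 49.3 and 34.6 TPM in wild type. The groups did not overlap, but the Δ*nuc-1* libraries differed more than 4-fold among themselves (ratio 9.70, log2 fold change 3.02, SE 0.50, limma adjusted p = 0.0048). In Experiment 1 this gene had 23.9, 9.67 and 19.6 TPM at 0 mM, against 329, 334 and 338 TPM at 7 mM. The nucleolar protein gene *nop-58* (NCU03396), whose product is a core protein of box C/D particles, had 229, 320 and 557 TPM in Δ*nuc-1*, against 85.5, 98.6 and 60.7 TPM in wild type (ratio 5.31). Bystin (NCU08323), an assembly factor of the small subunit in yeast and human cells, had the smallest ratio of the list, 3.19, with 60.1, 71.3 and 128 TPM in Δ*nuc-1* and 39.9, 32.6 and 23.1 TPM in wild type. NIP7, *loc-1*, *bfr-2*, Esf1, Kri1, Mak11, PNO1, ribosome biogenesis protein 1 and nucleolar protein 4 were the others, and 7 of the 16 tested genes of the list that were not members were called higher in Δ*nuc-1*, none of them 4-fold.

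RNA helicases of the DEAD-box kind unwind and remodel the rRNA precursor, and all 9 that were members rose, 7 of them at least 4-fold. *has-1* (NCU09349, chromosome II, 4197884 to 4200108) had 57.2, 89.9 and 166 TPM in Δ*nuc-1*, against 27.2, 21.1 and 16.8 TPM in wild type. Its groups were apart by more than 2-fold (ratio 5.68, log2 fold change 2.29, SE 0.36, limma adjusted p = 0.0041). *drs-1* (NCU11175) had 25.7, 40.6 and 69.7 TPM in Δ*nuc-1*, against 12.9, 9.48 and 5.86 TPM in wild type (ratio 5.72). *dbp-3* (NCU05782) had 30.9, 49.0 and 80.1 TPM in Δ*nuc-1*, against 20.1, 13.8 and 12.0 TPM in wild type (ratio 4.11). Both helicases were higher in each Δ*nuc-1* library than in any wild-type library of Experiment 2. The other 6 were *rok-1*, *spb-4*, *dbp-4*, *rrp-3*, *dbp-9* and *dbp-10*. Among the 21 helicase genes that were not members, 8 were called higher, 2 of them at least 4-fold, with a median ratio of 1.4.

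Of the 3 members annotated as cytosolic ribosomal proteins, the parts that are assembled with the rRNA, 2 rose in Δ*nuc-1*. The gene annotated as 60S acidic ribosomal protein P0 (NCU07547) had 81.7, 122 and 200.2 TPM in Δ*nuc-1*, against 42.6, 21.3 and 16.9 TPM in wild type (ratio 5.94, limma adjusted p = 0.0036). *crp-15* (NCU00258) had 1481, 1687 and 1921 TPM in Δ*nuc-1*, against 922, 1115 and 1293 TPM in wild type. These groups did not overlap either, but the ratio of 1.73 was below the threshold of a call (log2 fold change 0.81, SE 0.22, limma adjusted p = 0.031). *crp-15* was also one of 6 members whose mean in starved wild type of Experiment 2 was above that at 7 mM. The gene annotated as 60S ribosomal protein L3 (NCU06749) had another pattern of levels, with 7.24 TPM in Δ*nuc-1*, 3.62 TPM in its wild type, and 51.0 TPM in Δ*nuc-3* and 50.5 TPM in wild type of Experiment 3. Both 12 h means were above its 21.1 TPM at 7 mM. Another gene with the same annotation, NCU06843, was at 2388 TPM at 7 mM and is not a member. NCU07547, annotated as P0, was likewise at only 109 TPM at 7 mM. A gene with the symbol *po* and no annotation here, NCU07408, was at 3027 TPM at 7 mM and is not a member. Its mean deposited TPM was 5838 in Δ*nuc-1* and 3121 in wild type of Experiment 2. What that symbol stands for was not checked. Whether NCU06749 or NCU07547 encodes a cytosolic ribosomal protein was not tested. Of the 78 other cytosolic ribosomal protein genes tested, 5 were called higher in Δ*nuc-1* and none 4-fold, with a median ratio of 1.65.

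**Figure D3:**
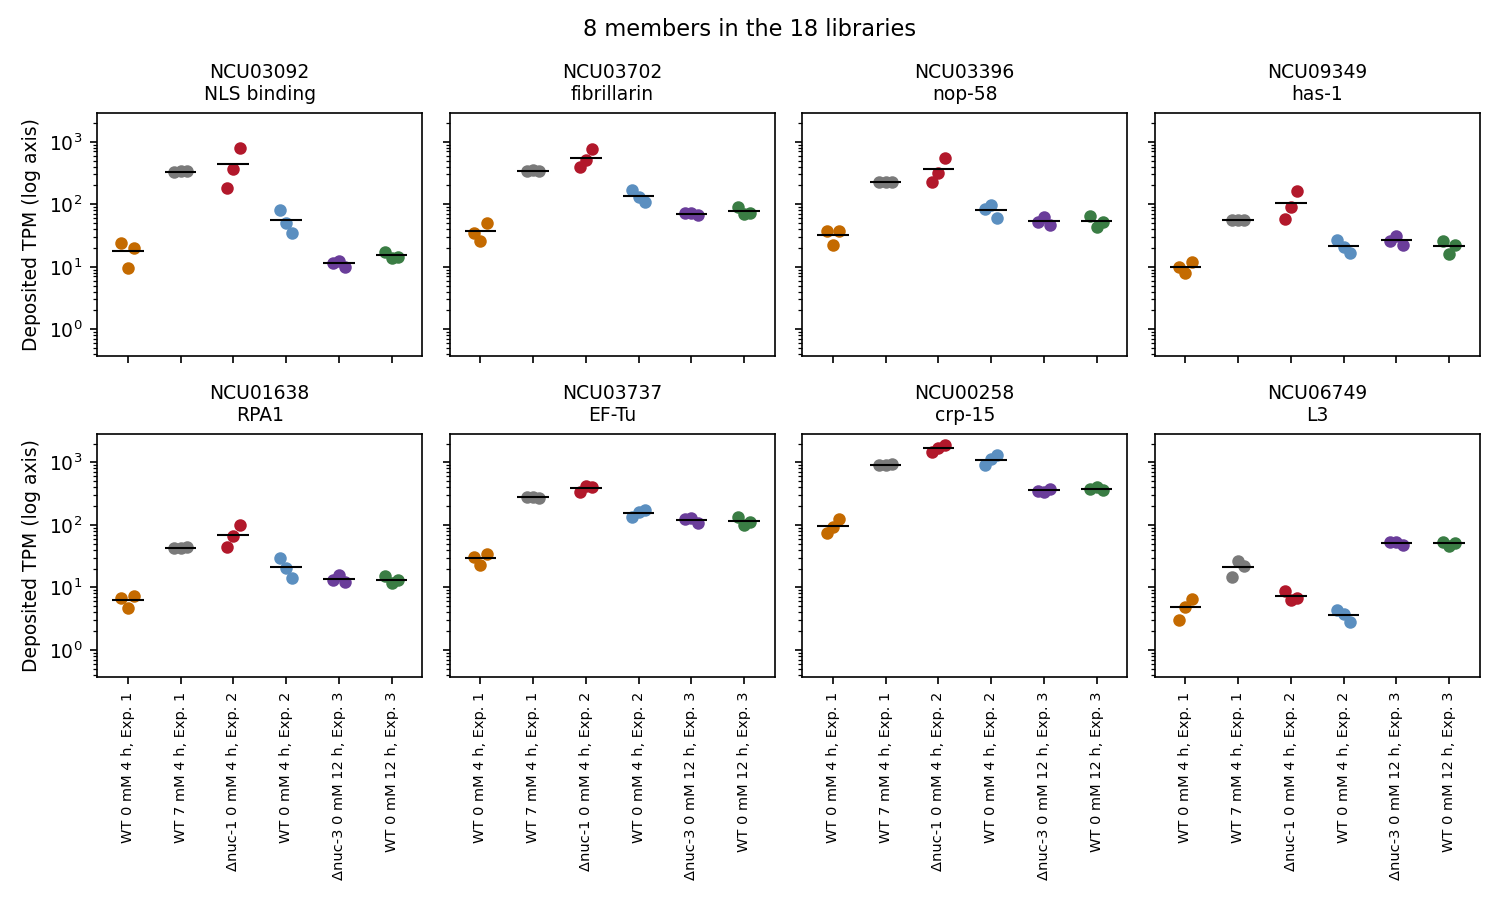
Deposited TPM of 8 members in each of the 18 libraries on a log axis, with one dot for each library and a line at the mean of the 3. Fibrillarin, *nop-58*, *has-1*, RPA1 and NCU03092 were high at 7 mM and in Δ*nuc-1* and low in the other starved groups, while *crp-15* was at 922 to 1293 TPM in wild type of Experiment 2 and the gene annotated as L3 was highest in Experiment 3.

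The lists for mitochondrial ribosome and translation and for other mitochondrial proteins held 5 members, and all 5 rose. Of the other genes tested in these lists, 0 of 11 and 7 of 84 were called higher, with median ratios of 1.51 and 1.02. *cyt-19* (NCU07670), a DEAD-box RNA chaperone that helps mitochondrial group I introns to fold, had 77.7, 122 and 180 TPM in Δ*nuc-1*, against 32.1, 34.3 and 20.1 TPM in wild type (ratio 5.16, limma adjusted p = 0.0026). *cyt-18* (NCU03030), the mitochondrial tyrosyl-tRNA synthetase that also binds these introns, had 26.9, 42.0 and 51.2 TPM in Δ*nuc-1*, against 16.6, 18.3 and 17.2 TPM in wild type (ratio 2.65). The mitochondrial carrier gene annotated as RIM2 (NCU01916) had a ratio of 5.45. The elongation factor genes EF-Tu (NCU03737) and EF-G 1 (NCU02955) had smaller ratios, 2.84 and 2.54, with less spread between the Δ*nuc-1* libraries. EF-Tu had 339, 415 and 411 TPM in Δ*nuc-1*, against 134, 162 and 170 TPM in wild type. In the list for protein folding, the mitochondrial chaperonin gene *hsp60* (NCU01589) had 209, 270 and 353 TPM in Δ*nuc-1*, against 143, 184 and 178 TPM in wild type, and its ratio of 1.89 stayed under 2 (limma adjusted p = 0.031). *fkr-4* (NCU03241), named for FK506 resistance, had a ratio of 4.03 and was called, as were 3 of the 33 other genes of that list.

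Among the remaining annotated members, *mtr* (NCU06619) encodes a permease for neutral amino acids. It had 517, 570 and 393 TPM in Δ*nuc-1*, against 171, 292 and 276 TPM in wild type, and the groups did not overlap (ratio 2.25, limma adjusted p = 0.0097). The gene annotated as aconitate hydratase (NCU00977), an enzyme that converts citrate to isocitrate in its best-known form, had 37.3, 43.7 and 40.7 TPM in Δ*nuc-1*, against 19.5, 19.3 and 20.1 TPM in wild type (ratio 2.35). *lys-3* (NCU03010), a gene of lysine synthesis, had 207, 191 and 198 TPM in Δ*nuc-1*, against 71.2, 121 and 72.2 TPM in wild type (ratio 2.58). In deposited TPM, Δ*nuc-1* replicate 3 was not the highest library for these 3 genes, but after rescaling it was for *lys-3* and NCU00977. *rbg-40* (NCU07722), which bears a symbol shared with ribosome biogenesis genes but has no annotation here, had 8.90, 17.1 and 21.6 TPM in Δ*nuc-1*, against 2.00, 2.80 and 1.20 TPM in wild type, the next largest ratio after NCU03092 (9.33, limma adjusted p = 0.0019). *gch-1* (NCU07774) had a ratio of 4.13. The gene annotated as a fatty acid desaturase (NCU09497) had a ratio of 2.11, and its adjusted p was 0.057 to 0.094 when any library but Δ*nuc-1* replicate 1 was left out.

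**Figure D4:**
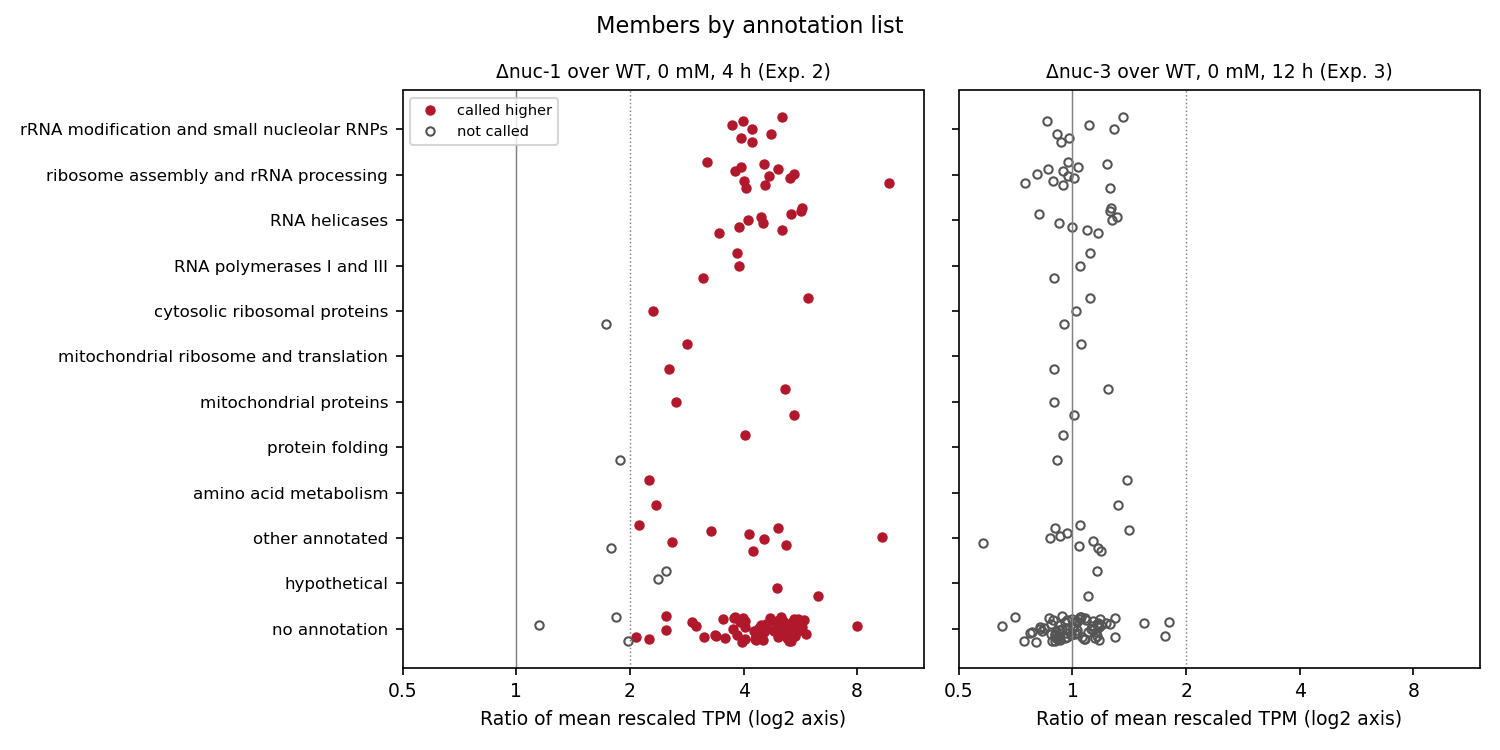
Ratio of mean rescaled TPM of each member, grouped by annotation, in Δ*nuc-1* over wild type (left) and in Δ*nuc-3* over wild type (right), on a log2 axis, with solid lines at 1 and dotted lines at 2. Filled points were called higher, as 122 members were in Δ*nuc-1* and 0 in Δ*nuc-3*. The 2 lists with 1 member, both called in Δ*nuc-1*, and the ratio of the gene listed at 0 in every wild-type library are not drawn.

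Of the 72 members without an annotation, 68 were called higher, 50 of them at least 4-fold, with a median ratio of 4.6. NCU03561, picked after its values were seen for its fall of 21.8-fold in Experiment 1, had 444, 615 and 804 TPM in Δ*nuc-1*, against 134, 136 and 145 TPM in wild type (ratio 5.14). NCU08923, the most abundant of them at 7 mM, had 933, 1027 and 1172 TPM in Δ*nuc-1*, against 403, 418 and 409 TPM in wild type (ratio 2.91, limma adjusted p = 0.0010). NCU06752 had a ratio of 8.0, with 19.2, 31.8 and 70.6 TPM in Δ*nuc-1* and 7.68, 6.32 and 4.13 TPM in wild type. NCU03117 and NCU00225 had ratios of 4.53 and 1.98. The hypothetical protein gene NCU02155 had 78.9, 93.0 and 156 TPM in Δ*nuc-1*, against 23.1, 23.8 and 14.3 TPM in wild type (ratio 6.30).

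The 10 members that were not called higher fell into different kinds. *oxa-2* (NCU06778) was not tested, being at 0.106 to 0.408 TPM in Δ*nuc-1* and at 0 to 0.432 TPM in wild type. NCU00225, *crp-15* and *hsp60* passed the adjusted p but had ratios under 2. NCU09284 had 7.70, 7.05 and 0 TPM in Δ*nuc-1* and was listed at 0 in the 3 wild-type libraries, so it has no ratio (limma adjusted p = 0.078). NCU07185, NCU07316 and NCU17101 were at a few TPM and did not pass (limma adjusted p of 0.083, 0.33 and 0.099). NCU06911 had 191, 196 and 111 TPM in Δ*nuc-1*, against 173, 146 and 168 TPM in wild type, with overlapping groups (ratio 1.15, limma adjusted p = 0.56). The gene annotated as a multidrug resistant protein (NCU00754) had 21.2, 140 and 133 TPM in Δ*nuc-1*, against 73.2, 53.1 and 63.8 TPM in wild type. One Δ*nuc-1* library lay below and the other two above all of wild type (ratio 1.79, limma adjusted p = 0.69).

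Among all genes with 10 to under 1000 TPM at 7 mM, the share called higher in Δ*nuc-1* was larger for genes with a fall of at least 4-fold in Experiment 1 than for those with smaller falls. The 2 experiments share no library, the bins were set after the data had been seen, and they include the 7 genes left out of the members. Of the genes with a fall of at least 8-fold, 29 of 32 tested were called higher in Δ*nuc-1*, 27 of them at least 4-fold. Of those with a fall from 4- to 8-fold, 100 of 106 were, 59 of them at least 4-fold. Below the threshold for membership, the share was 51 of 68 for a fall from 3- to 4-fold and 94 of 214 for a fall from 2- to 3-fold. It was 72 of 1273 for a fall under 2-fold, and 12 of 4090 for genes with no fall. The share thus changed by degrees across the threshold for membership. Across 129 members with both values, the fall and the ratio had a Spearman rho of 0.48, given as a description, since genes of the same libraries are not independent.

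**Figure D5:**
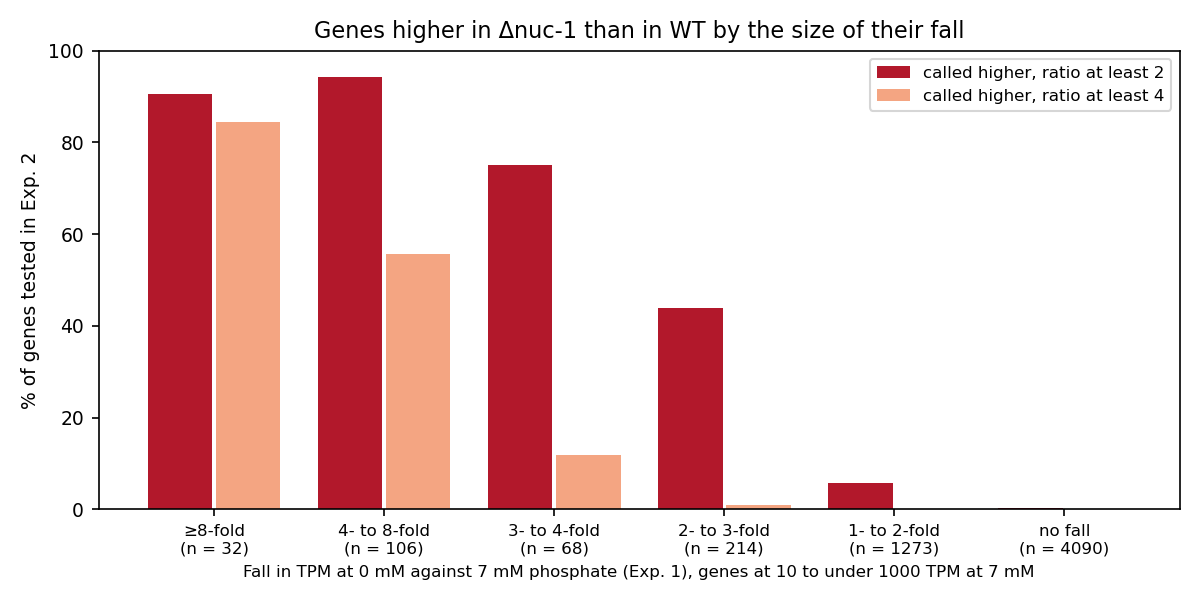
Percentage of tested genes called higher in Δ*nuc-1* than in wild type, at a ratio of at least 2 (dark bars) and at least 4 (light bars), by the size of the fall at 0 mM against 7 mM phosphate in Experiment 1. The dark bars stand at 90.6%, 94.3%, 75%, 43.9%, 5.66% and 0.293%, with the number of genes tested under each pair.

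The 80 genes that were at 1000 TPM or more at 7 mM and fell at least 4-fold in Experiment 1 differed from the members in their counts. Of these abundant genes, 7 were called higher in Δ*nuc-1* and none 4-fold, with a median ratio of 1.67, against 122, 81 and 4.43 for the 132 members. Over all genes tested, 5.15% were called higher and 1.44% at least 4-fold. The ratio was above 1 for all 80 abundant genes (1.14 to 3.19) and all 131 members tested, against 3999 of 7909 genes. In wild type of Experiment 2 the abundant genes were at a median of 58.7% of their 7 mM level, and the members at 35.0%. The difference between the sets was not tested.

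After 12 h without phosphate, no member was called between Δ*nuc-3* and wild type at a ratio of 2 in either direction. Over the 7924 genes tested, 0.707% were called higher and 0.0883% lower, and at a ratio of at least 4 the shares were 0.265% and 0.0252%. Of the 130 members tested with limma, 13 were higher and 8 lower at an unadjusted p under 0.05, where 949 were higher and 778 lower of all 7924 genes. The lowest adjusted p of a member was 0.060. The ratios had a median of 1.01 and ran from 0.581 to 1.81. In deposited TPM, the 3 Δ*nuc-3* libraries lay above the 3 wild-type libraries for 12 members, 9.09% of the 132, where 11.3% of all genes tested did. The spread between libraries was smaller than in Experiment 2, with a median SD of 0.186 log2 units in Δ*nuc-3* and 0.193 in wild type.

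The members at the ends of that range showed how far single genes moved. NCU09094 had 5.99, 6.82 and 5.89 TPM in Δ*nuc-3*, against 3.54, 2.80 and 4.15 TPM in wild type, with no overlap (ratio 1.81, log2 fold change 0.71, SE 0.14, limma adjusted p = 0.060). NCU01855 had 17.0, 24.1 and 19.6 TPM in Δ*nuc-3*, against 16.8, 8.71 and 9.66 TPM in wild type. One wild-type library came close to the Δ*nuc-3* libraries (ratio 1.76, limma adjusted p = 0.12), and without that library, wild-type replicate 1, this gene was the only member called higher (ratio 2.17). *lys-3* had 39.7, 27.3 and 34.5 TPM in Δ*nuc-3*, against 35.6, 73.3 and 66.0 TPM in wild type (ratio 0.581, limma adjusted p = 0.25). NCU06752 had 6.03, 4.51 and 4.16 TPM in Δ*nuc-3*, against 7.86, 7.50 and 7.46 TPM in wild type (ratio 0.649, limma adjusted p = 0.11). The ribosome assembly genes stayed near a ratio of 1, with ratios from 0.75 to 1.26 for the 12 assembly factors, from 0.854 to 1.36 for the 7 modification genes and from 0.816 to 1.32 for the 9 helicases. A p above the threshold does not show that the strains were alike for any one gene.

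A few members were not low at 12 h. The mean in Δ*nuc-3* was at or above the 7 mM mean of Experiment 1 for 6 members and that in wild type for 5. *oxa-2* had 30.5, 27.7 and 26.8 TPM in Δ*nuc-3* and 27.5, 34.4 and 36 TPM in wild type, and 1.43, 1.05 and 1.62 TPM at 0 mM and 12.2, 15.1 and 13.3 TPM at 7 mM in Experiment 1. NCU09284 had 71.4, 64.0 and 78.2 TPM in Δ*nuc-3* and 52.8, 84.8 and 72.6 TPM in wild type, and it was at 0 to 7.70 TPM in the libraries of Experiment 2. For these genes the time, the strain and the read length all differed between the experiments and cannot be told apart.

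The members were spread over all 7 chromosomes. Chromosome II held 15.2% of the members and 10.3% of the 5787 genes in the same range, and chromosome VI held 4.55% and 9.09%. Their median gene length was 2418 bp, against 2405 bp for the genes in range. In 3 cases both genes of a neighbouring pair were members, NCU01503 with NCU01502 (166 bp apart) and NCU09488 with NCU09489 (180 bp apart) on chromosome II, and NCU00336 with NCU00337 (199 bp apart) on chromosome III. All 6 rose in Δ*nuc-1*, with ratios of 3.14 and 5.23 in the first pair, 5.78 and 5.58 in the next, and 5.29 and 5.33 in the last.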

How the data were processed

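The authors quantified each library with Salmon version 1.4.0 against the *N. crassa* OR74A genome and deposited TPM values, which add up to 1000000 per library and hold no read counts. The depth behind each value is therefore unknown, and no counting interval or lower limit is given. The 10697 transcript rows were summed per gene. Samples were grouped by the deposited labels. The members and the annotation lists were chosen with earlier results of these data known.

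Within each comparison of 6 libraries, TPM were rescaled by median-of-ratios factors (0.879 to 1.16 in Experiment 2 and 0.942 to 1.06 in Experiment 3). Genes averaging 1 TPM or more over those libraries entered a two-sided limma fit (version 3.58.1, lmFit and eBayes with trend = TRUE, R version 4.3.3) on the log2(rescaled TPM + 1) scale, with Benjamini-Hochberg adjustment over all genes tested. A log2 fold change on this scale understates the change of low genes. With 3 libraries in each group, the smallest p of an exact permutation test is 0.1. The fit was tested on simulated data in which genes varied independently and both groups had the wild-type spread. The members spread more in Δ*nuc-1* and moved together between its libraries, which that simulation does not cover.

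Annotations came from RefSeq symbols of assembly NC12 and from the annotation columns of the study's gene tables, assigned to lists by keywords. Genes were named by a rule: the 3 most abundant members at 7 mM of each list with at least 2 members, the 3 largest and 3 smallest ratios for Δ*nuc-1*, the 2 largest and 2 smallest for Δ*nuc-3*, the 3 genes on each side of the threshold, the deleted genes, the markers, and any member called lower in Δ*nuc-1* or called in Δ*nuc-3*. Other genes were picked after their values were seen. Promoter motifs were planned but no genome sequence was used here. Figures were drawn with matplotlib version 3.10.9 from tables handled with pandas version 2.3.3 in Python version 3.11.15.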

Additional observations from a re-analysis of the deposited data

How the results depend on the processing

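TPM carry no depth, so precision rests on 3 libraries per group. With TPM as deposited, 52 members passed a ratio of 4 in Δ*nuc-1*, in place of 81. Leaving out single libraries, between 12 (without Δ*nuc-1* replicate 3) and 103 members passed that ratio, and between 109 and 124 at a ratio of at least 2. The count at a ratio of at least 2 stayed between 109 and 124 under all alternatives run, and no alternative called a member lower. The choice of members itself gave 206 genes from rescaled TPM, 131 of them among the 132, and 120 to 140 genes with a library of Experiment 1 left out. The replicate numbers did not pair the libraries (correlations of deviations from -0.57 to -0.01 for the same number). Between different numbers these correlations ran from -0.0604 to 0.0742 in Experiment 2 and from -0.465 to 0.562 in Experiment 3. The highest were 0.562 for Δ*nuc-3* replicate 2 with wild-type replicate 1 and 0.535 for Δ*nuc-3* replicate 3 with wild-type replicate 2. Pairing in another order was not tested. With the replicate block, 114 members passed a ratio of 2 and 78 a ratio of 4, and over all genes in Δ*nuc-3* 2 were called higher and 1 lower, in place of 56 and 7. In Δ*nuc-3*, a fit over all 18 libraries called 94 genes higher and 17 lower, and TPM as deposited 4 lower. With each library of Experiment 3 left out, 4 to 40 genes were higher and 1 to 11 lower over all genes, and 0 to 1 members higher. The cause of these shifts was not tested. For single genes, the limma log2 fold change of NCU00754 in Δ*nuc-1* changed sign without Δ*nuc-1* replicate 2 (-0.022) and replicate 3 (-0.0555), was 1.32 and called without replicate 1, and that of NCU06911 was -0.0085 with TPM as deposited. The adjusted p of *crp-15*, *hsp60* and NCU09497 was above 0.05 in 13 of their 18 fits with a library left out.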

Other observations

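Values at 0 were rare among the members. *oxa-2* (NCU06778), NCU07185, NCU07316, NCU09284 and NCU17101 were listed at 0 in at least 1 of the 18 libraries, and the other 127 in none. NCU07316 had 2.34, 14.6 and 3.30 TPM in Δ*nuc-1*, against 5.06, 0 and 3.99 TPM in wild type, and was listed at 0 in all 3 Δ*nuc-3* libraries, against 0, 0.113 and 0.189 TPM in wild type of Experiment 3.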
